A study of Homo sapiens with 3 samples.

Results

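Proliferating cells were picked out of 3 droplet single-cell RNA libraries by 2 genes of dividing cells, MKI67 and TOP2A. The cells were chosen by measured values: a barcode counted as a cycling cell when it held 2 or more UMIs of each of those genes. It also needed 1000 to 60000 UMIs in all, 500 or more genes, and no more than 20% of its UMIs from the mitochondrial genome. A UMI is a tag that marks 1 captured RNA molecule. Of 25852 barcodes that passed the filters on UMIs, genes and mitochondrial share, 1270 (4.91%) were cycling by this rule. They numbered 364 of 8780 in the library labelled KO, 648 of 8445 in the library labelled HET and 258 of 8627 in the library labelled WT. The rest of the kept barcodes are called the other cells.

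The 3 libraries were made from the human embryonic stem cell line H1 and were labelled as beta cells made from pluripotent cells. The KO library was PAX6-/-, the HET library PAX6+/- and the WT library unedited, and PAX6 is a transcription factor needed for islet endocrine cells. The position of the PAX6 lesion, the number of clones behind each genotype and the end of the RNA that the kit read were not given in the sources used here. With 1 library per genotype, the genotype and its library cannot be told apart, no difference between libraries has a replicate check, and no p-value is given. Intervals are exact 95% intervals that cover counting error only, and not the spread between differentiations. PAX6 RNA stood at 11.6 CPM (UMI counts scaled by library total) in KO cycling cells, at 7.96 CPM in HET and at 22.6 CPM in WT. RNA level does not check the genotype, because the lesion is not described.

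MKI67 encodes the Ki-67 protein, which coats mitotic chromosomes and is lost in resting cells, and TOP2A encodes the topoisomerase that untangles sister chromatids. Both belong to a set of genes that cells switch on in late S, G2 and M phase, together with the kinases, spindle proteins and ubiquitin ligase partners that carry out mitosis. In the developing pancreas, epithelial progenitors divide, and cells that enter the endocrine fate through NEUROG3 mostly leave the cell cycle.

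Depth and quality were alike between libraries and unlike between the cell classes. The 3 libraries held 145948590 UMIs (KO), 136834433 UMIs (HET) and 140068492 UMIs (WT) over all barcodes. Cycling cells had a median of 23586 UMIs in KO, 22380 in HET and 22396 in WT, against 14895.5, 13559 and 14153 UMIs in the other cells of KO, HET and WT. The part of the rule, which asks for 2 UMIs of 2 genes, in this gap was not tested. The median mitochondrial share in cycling cells was 5.47% in KO, 6.31% in HET and 5.09% in WT. Doublets were scored and not removed. Among the top 8% of doublet scores in each library were 15.9% of KO, 17.0% of HET and 16.3% of WT cycling cells, against 7.66% of KO, 7.26% of HET and 7.75% of WT other cells. The part of doublets in the results was not tested beyond the values given beside them. The KO and HET libraries shared 30 barcodes, KO and WT 26, HET and WT 43, and no barcode occurred in all 3.

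The label fitted the cells on the 2 markers that the rule did not use, which nonetheless come from the same cells. CENPF, a kinetochore protein of G2 and M phase, had a UMI in 98.9% of KO, 98.1% of HET and 96.9% of WT cycling cells, against 9.67%, 13.3% and 7.13% of the other cells. UBE2C, the ubiquitin-conjugating enzyme of the anaphase-promoting complex, had a UMI in 90.4% of KO, 89.2% of HET and 90.7% of WT cycling cells, against 3.52%, 6.75% and 3.11% of the other cells. The other cells still included cells in cycle. In 333 barcodes just outside the threshold, where the lower of MKI67 and TOP2A was at 1 UMI, CENPF had a UMI in 82.0% and UBE2C in 60.4%. In 235 barcodes just inside it, with the lower gene at 2 UMIs, these shares were 93.6% and 74.9%. The rule is a cut through a range, and cells in cycle lie on both sides of it.

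HET had the highest share of cycling cells. The share was 4.15% (3.74 to 4.58) in KO, 7.67% (7.11 to 8.26) in HET and 2.99% (2.64 to 3.37) in WT. These counting intervals do not overlap between any of the libraries. With every cell thinned to 5000 UMIs the shares were 1.04% (0.834 to 1.28) in KO, 2.46% (2.13 to 2.81) in HET and 0.960% (0.760 to 1.19) in WT, after 309, 223 and 395 shallower cells were left out. At equal depth HET stayed the highest, and the KO and WT intervals overlapped. 1 cluster, led by the transcription factor gene TFAP2B, held 36 KO, 249 HET and 0 WT cycling cells. Without it the shares were 3.79% (3.40 to 4.22) in KO, 5.15% (4.67 to 5.66) in HET and 2.99% in WT, and when also thinned 0.911% in KO, 1.496% in HET and 0.960% in WT.

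**Figure D1:**
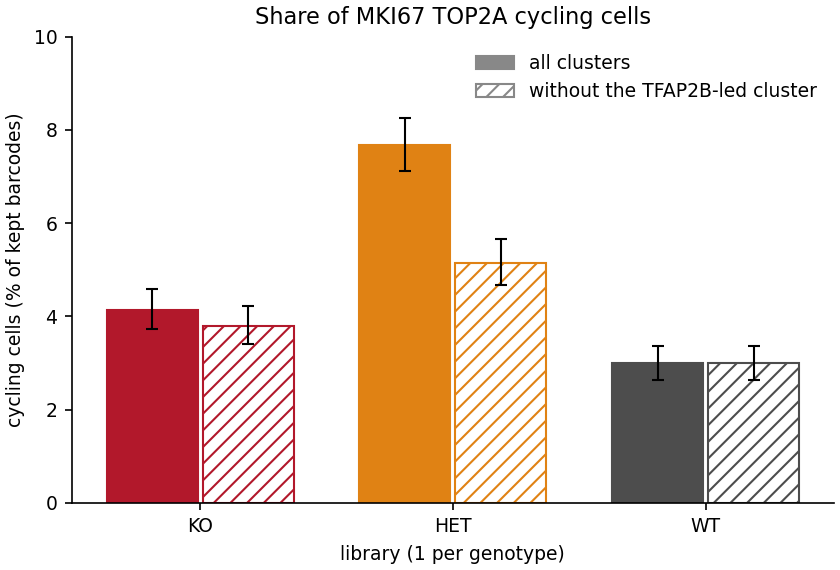
Share of kept barcodes that were cycling, in percent, in the KO, HET and WT libraries, over all clusters (filled bars) and without the TFAP2B-led cluster (hatched bars), with exact 95% binomial intervals. HET is highest both ways, at 7.67% over all clusters and 5.15% without that cluster, and the 2 WT bars are equal because WT had 0 cells there.

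The cell cycle genes themselves are described here without a reading, because the rule chose the cells on 2 of them. Over genes with at least 50 CPM in either class of each library, 133 of 3218 (4.13%) were 2-fold or more higher in cycling than in other cells of all 3 libraries and 17 (0.528%) were lower by as much. The higher set held 37 of 41 tested genes of the G2/M list and 14 of 16 of the S phase list. MKI67 stood at 274.9 CPM in KO, 295 CPM in HET and 292.5 CPM in WT cycling cells, against 2.03, 4.74 and 2.24 CPM in the other cells. PLK1, the kinase that drives mitotic entry, stood at 64.6 CPM in KO, 68.2 CPM in HET and 82.3 CPM in WT cycling cells. Genes outside the lists with the highest ratios included DEPDC1, a mitotic regulator, at 53.1-fold in KO, 30.1-fold in HET and 68.8-fold in WT. KIFC1, a spindle motor, was 36.5-fold higher in KO, 21.7-fold in HET and 54.7-fold in WT cycling cells than in the other cells. MAD2L1, a spindle checkpoint protein, followed at 13.0-fold, 10.5-fold and 13.8-fold in KO, HET and WT.

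The promoters of 4 such genes are shown because many G2/M genes carry a CCAAT box together with a cell cycle homology region in the bases before their start. Each sequence runs from 250 bases before to 50 bases after the RefSeq start on GRCh38.p14, read along the gene's own strand. MKI67 is at chr10:128126374-128126673 (minus strand), TOP2A at chr17:40417847-40418146 (minus), CCNB2 at chr15:59104896-59105195 (plus) and PLK1 at chr16:23678639-23678938 (plus). CCNB2 encodes a mitotic cyclin. Capitals mark CCAAT and TTTGAA, or the same motifs on the other strand, ATTGG and TTCAAA. In MKI67, 1 TTTGAA overlaps an ATTGG.
MKI67: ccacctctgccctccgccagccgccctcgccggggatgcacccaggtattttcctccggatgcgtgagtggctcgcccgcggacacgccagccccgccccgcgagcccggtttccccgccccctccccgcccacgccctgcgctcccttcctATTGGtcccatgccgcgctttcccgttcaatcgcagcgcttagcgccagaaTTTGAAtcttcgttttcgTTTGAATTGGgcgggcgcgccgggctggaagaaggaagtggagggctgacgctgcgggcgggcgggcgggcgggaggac
TOP2A: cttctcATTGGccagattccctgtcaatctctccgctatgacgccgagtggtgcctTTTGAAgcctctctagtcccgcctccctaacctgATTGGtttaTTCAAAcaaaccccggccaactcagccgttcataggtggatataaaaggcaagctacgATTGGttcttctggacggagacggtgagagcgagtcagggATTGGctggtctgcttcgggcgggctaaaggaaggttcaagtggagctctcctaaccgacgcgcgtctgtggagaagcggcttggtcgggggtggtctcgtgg
CCNB2: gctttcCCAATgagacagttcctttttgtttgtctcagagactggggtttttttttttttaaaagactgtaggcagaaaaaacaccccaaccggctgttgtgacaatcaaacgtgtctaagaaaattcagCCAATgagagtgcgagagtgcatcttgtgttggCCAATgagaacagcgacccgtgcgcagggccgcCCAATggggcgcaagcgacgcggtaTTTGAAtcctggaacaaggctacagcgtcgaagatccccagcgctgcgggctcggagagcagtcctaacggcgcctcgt
PLK1: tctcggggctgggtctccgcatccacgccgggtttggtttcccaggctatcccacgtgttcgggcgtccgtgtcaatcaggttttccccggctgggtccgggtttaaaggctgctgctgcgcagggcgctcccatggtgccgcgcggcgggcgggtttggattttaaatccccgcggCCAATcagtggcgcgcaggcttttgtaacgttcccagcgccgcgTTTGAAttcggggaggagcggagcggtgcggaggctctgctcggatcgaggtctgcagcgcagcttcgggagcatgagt

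MKI67 held 2 CCAAT and 2 TTTGAA matches, TOP2A 4 and 2, CCNB2 4 and 1, and PLK1 1 and 1, counting both strands. Of 9 promoters found for 8 of the 9 G2/M genes searched, 9 held CCAAT and 8 held TTTGAA, and none held TTCGAA. In the whole G2/M list, 38 of 58 promoters (65.5%) held CCAAT and 36 (62.1%) TTTGAA, and 30 (51.7%) held CCAAT with TTTGAA or TTCGAA. In the S phase list, 31 of 47 promoters (66.0%) held CCAAT and 3 (6.38%) TTTGAA. Among all 35116 promoters in the table, 34.6% held CCAAT, 15.2% TTTGAA and 1.45% TTCGAA. A match is a run of letters and not a measured binding site.

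WT cycling cells leaned to G2/M, and KO and HET cycling cells held more S phase RNA. For each cell the UMIs of the G2/M list, without MKI67 and TOP2A, were divided by the UMIs of the S and G2/M lists together. The median of this G2/M part was 63.7% in KO (quartiles 57.1 to 76.3), 67.7% in HET (57.3 to 79.7) and 78.5% in WT (65.8 to 86.2). The quartile ranges overlap. Thinned to 5000 UMIs, the medians were 65.1% in KO, 68.9% in HET and 79.2% in WT. Cells with under 50% numbered 27 of 364 in KO (7.42%), 55 of 648 in HET (8.49%) and 6 of 258 in WT (2.33%), and 59, 89 and 14 cells lay within 5 percentage points of that line. Within the 1 cluster that formed on cell cycle genes, the medians were 61.4% in KO, 63.1% in HET and 65.2% in WT, so the libraries lay closer together there. The rule asks for 2 genes of late S to M phase, so it does not measure the share of cells in S phase.

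**Figure D2:**
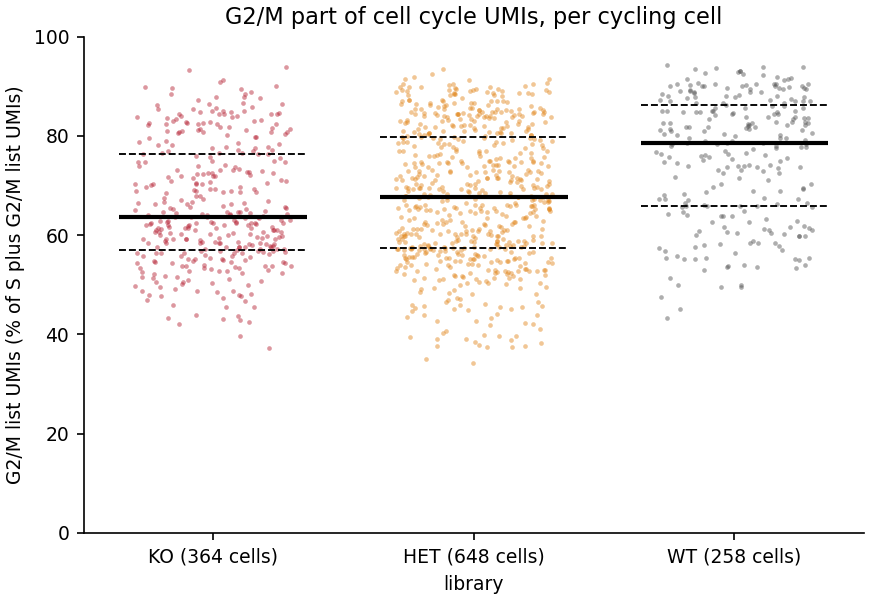
G2/M part of cell cycle UMIs per cycling cell, in percent, in KO, HET and WT. The medians are 63.7% in KO, 67.7% in HET and 78.5% in WT, with overlapping spreads. Each point is 1 cell, the thick line is the median and the dashed lines are the quartiles.

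Genes of DNA replication were higher in KO and in HET than in WT cycling cells, mostly by under 2-fold. The 2 comparisons share the WT library, so each is given by its own values. Over all genes with at least 50 CPM in 1 of the 2 libraries, 21 of 3640 (0.577%) were higher in KO by 2-fold or more and 66 (1.81%) were lower, with a median log2 ratio of -0.03. For HET, 54 of 3650 (1.48%) were higher by 2-fold or more and 92 (2.52%) were lower, with a median of -0.05. The other cells had 22 higher (0.622%) and 59 lower (1.67%) in KO, and 14 higher (0.398%) and 51 lower (1.45%) in HET. In the replication list, 18 of 18 tested genes lay above WT in KO (median log2 0.63) and 16 of 17 in HET (median 0.47), of which 0 were at least 2-fold higher in KO and 1 in HET. PCNA, the sliding clamp of DNA polymerase, stood at 157 CPM in KO and 160.1 CPM in HET, against 92.9 CPM in WT. MCM3, part of the replicative helicase, stood at 129 CPM in KO and 123 CPM in HET, against 77.0 CPM in WT. MYBL2, a transcription factor of the S to G2 step, stood at 109 CPM in KO and 92.7 CPM in HET, against 47.9 CPM in WT. These genes were also higher in the other cells, where PCNA was at 34.9 CPM in KO and 42.7 CPM in HET, against 22.8 CPM in WT. In the cycling cells of the cluster that formed on cell cycle genes, the replication medians were smaller, at 0.29 in KO and 0.17 in HET. That cluster held 62.6% of KO, 48.3% of HET and 36.4% of WT cycling cells, and the part of this makeup was not tested.

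Most genes of the G2/M list and of the anaphase-promoting complex partners lay below WT. In the G2/M list, 38 of 49 tested genes lay below WT in KO (median log2 -0.23) and 36 of 50 in HET (median -0.17), and none was 2-fold apart. Partners of the anaphase-promoting complex lay below WT in 4 of 5 cases in each comparison, with medians of -0.70 in KO and -0.52 in HET. Mitotic cyclins and kinases lay below WT for 10 of 11 in KO (median -0.35) and 10 of 12 in HET (-0.29). Spindle and cytokinesis genes did so for 11 of 16 in KO (-0.12) and 12 of 16 in HET (-0.12). Kinetochore and condensin genes lay near WT. Of kinetochore genes, 8 of 14 lay below it in KO (median -0.07) and 7 of 14 in HET (-0.01). For condensin genes these were 9 of 15 in KO (-0.09) and 7 of 15 in HET (0.01). PTTG1, the securin that holds sister chromatids together, stood at 187 CPM in KO and 230.5 CPM in HET, against 378 CPM in WT. CDC20, which activates the complex, stood at 80.2 CPM in KO and 103 CPM in HET, against 130.1 CPM in WT. UBE2C stood at 226 CPM in KO and 261 CPM in HET, against 376 CPM in WT. CCNB1, a mitotic cyclin, stood at 188 CPM in KO and 209 CPM in HET, against 270.1 CPM in WT. CDKN1C, an inhibitor of cyclin-dependent kinases, stood at 276 CPM in KO and 268 CPM in HET, against 474 CPM in WT, and its level in the other cells was 419.8, 492 and 699.9 CPM in KO, HET and WT. In the cycling cells of the cluster that formed on cell cycle genes, the anaphase-promoting complex medians were -0.42 in KO and -0.18 in HET. The G2/M list medians there were -0.24 in KO and -0.12 in HET.

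Cycling cells of all libraries carried RNA of epithelial and gut-tube endoderm genes. At least 2-fold apart from the other cells in all 3 libraries were 0 of 8 tested epithelial genes (median log2 -0.19), 0 of 7 foregut endoderm genes (-0.19), 0 of 7 pancreatic progenitor genes (-0.19), 0 of 5 gut-like genes (-0.14) and 0 of 8 liver genes (-0.35), beside a median of -0.02 over all genes. EPCAM, an adhesion protein of epithelia, stood at 556 CPM in KO, 543 CPM in HET and 764 CPM in WT cycling cells, and had a UMI in 98.6% of KO, 99.1% of HET and 98.8% of WT. KRT8, a keratin of simple epithelia, stood at 835 CPM in KO, 906 CPM in HET and 992 CPM in WT. FOXA1, a pioneer factor of the gut tube, stood at 182 CPM in KO, 139 CPM in HET and 172 CPM in WT. In HET, PDX1, FOXA2 and CDX2 were found in a smaller share of cycling than of other cells at equal depth. After thinning, PDX1 had a UMI in 13.6% of HET cycling cells and 28.6% of HET other cells, FOXA2 in 22.99% and 35.8%, and CDX2 in 32.4% and 43.9%. In KO these shares were 19.5% and 22.5% for PDX1, 25.8% and 31.6% for FOXA2, and 42.6% and 46.0% for CDX2. In WT they were 34.5% and 35.0% for PDX1, 44.6% and 39.9% for FOXA2, and 67.4% and 54.2% for CDX2. The part of the TFAP2B-led cluster in the HET gap was not tested.

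Summed over cycling cells, RNA of genes from several gut-tube organs was counted, and whether the same cells held them was not tested. FOXA2, a pioneer factor of endoderm, stood at 62.1 CPM in KO and 63.6 CPM in HET, against 126 CPM in WT. PDX1, needed for the pancreas and duodenum, stood at 49.5 CPM in KO and 39.4 CPM in HET, against 89.6 CPM in WT. SOX9, a factor of pancreatic progenitors and ducts, stood at 36.4 CPM in KO and 25.8 CPM in HET, against 82.8 CPM in WT. These 3 were highest in WT. NKX6-1, which marks beta cells and their progenitors, stood at 10.8 CPM in KO, 7.15 CPM in HET and 22.3 CPM in WT. CDX2, the master factor of intestine, stood at 126 CPM in KO and 96.5 CPM in HET, against 236 CPM in WT, and after thinning had a UMI in 42.6% of KO, 32.4% of HET and 67.4% of WT cycling cells. AFP, the fetal serum protein of liver and yolk sac, stood at 982 CPM in KO, 557 CPM in HET and 831 CPM in WT, and after thinning had a UMI in 69.8%, 52.6% and 68.2% of KO, HET and WT cycling cells. AFP counts were spread over cells, with the top 5 cells holding 9.41% in KO, 8.20% in HET and 12.6% in WT.

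By list, 2 of 9 tested pancreatic progenitor genes were at least 2-fold lower in KO than in WT (median -0.52) and 3 of 8 in HET (-0.80). For liver genes, 1 of 9 was at least 2-fold lower in KO (-0.25) and 4 of 9 in HET (-0.75). Over all genes tested, 1.81% were lower by as much in KO and 2.52% in HET. Without the TFAP2B-led cluster the HET medians were -0.34 for pancreatic progenitor and -0.31 for liver genes. The foregut list had a HET median of -0.43, which was 0.12 without that cluster. For gut-like genes these HET medians were -0.52 and 0.22. Of the lists of other lineages, 4 of 10 pluripotent genes reached 50 CPM in each comparison, and of 14 mesenchymal genes 2 in KO and 3 in HET. COL1A1, a collagen of mesenchyme, had a UMI in 12.4% of KO, 27.0% of HET and 11.6% of WT cycling cells. The defining genes POU5F1, PECAM1 and PTPRC of other lineages had few UMIs. POU5F1, the pluripotency factor, had 2 UMIs in KO, 2 in HET and 1 in WT over all cycling cells. PECAM1 of endothelium had 1, 2 and 0 UMIs, and PTPRC of blood cells 0, 1 and 0, in KO, HET and WT.

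TFAP2B-led cells made up much of the HET cycling population and were not seen in WT. The cluster's 10 leading genes were TFAP2B, CXCL14, VTCN1, COL3A1, LUM, DCN, GABRP, WNT6, TFAP2A and GAS1. They include markers of both the ectoderm-like and the mesenchymal list, so the cluster is called by its leading gene. It held 132 KO, 693 HET and 0 WT cells, of which 27.3% (19.9 to 35.7) in KO and 35.9% (32.4 to 39.6) in HET were cycling. It gave 9.89% of all cycling cells in KO and 38.4% in HET, while 0 of 258 in WT allows a share of up to 1.16% by a limit of 3 counts, or 1.42% by the exact interval. Its presence in 2 libraries and the lack of such cells in the WT library cannot be told apart from differences between single differentiations.

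Cycling cells of this cluster held keratin and collagen RNA, and had lower FOXA1 than cycling cells outside it. KRT19, a keratin of simple epithelia, stood at 1161 CPM in KO and 1117 CPM in HET cycling cells of the cluster. EPCAM stood at 376 CPM in KO and 418 CPM in HET within it, against 579.6 CPM in KO and 625 CPM in HET outside it. FOXA1 stood at 30.6 CPM in KO and 51.4 CPM in HET within it, against 200.4 CPM in KO and 192 CPM in HET cycling cells outside it. VIM, an intermediate filament of mesenchyme and many progenitors, stood at 339 CPM in KO and 736 CPM in HET within it, against 1935 and 1624 CPM outside it. Mesenchymal list genes went the other way for the matrix proteins, with COL1A1 at 81.2 CPM in KO and 76.8 CPM in HET within it, against 3.69 and 4.88 CPM outside it. Over its cells, 9 of 14 mesenchymal and 6 of 8 ectoderm-like list genes were at least 2-fold above the rest. So were 36 of 43 S phase and 25 of 26 DNA replication genes, and the share over all genes was not taken. Of the mesenchymal and of the ectoderm-like list, 3 genes each are leading genes of the cluster. TP63, a factor of stratified epithelium, stood at 24.2 CPM in KO and 21.5 CPM in HET, and KRT5 and KRT14, keratins of its basal layer, were at 0. The leading genes define the cluster and are given as its identity only.

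**Figure D3:**
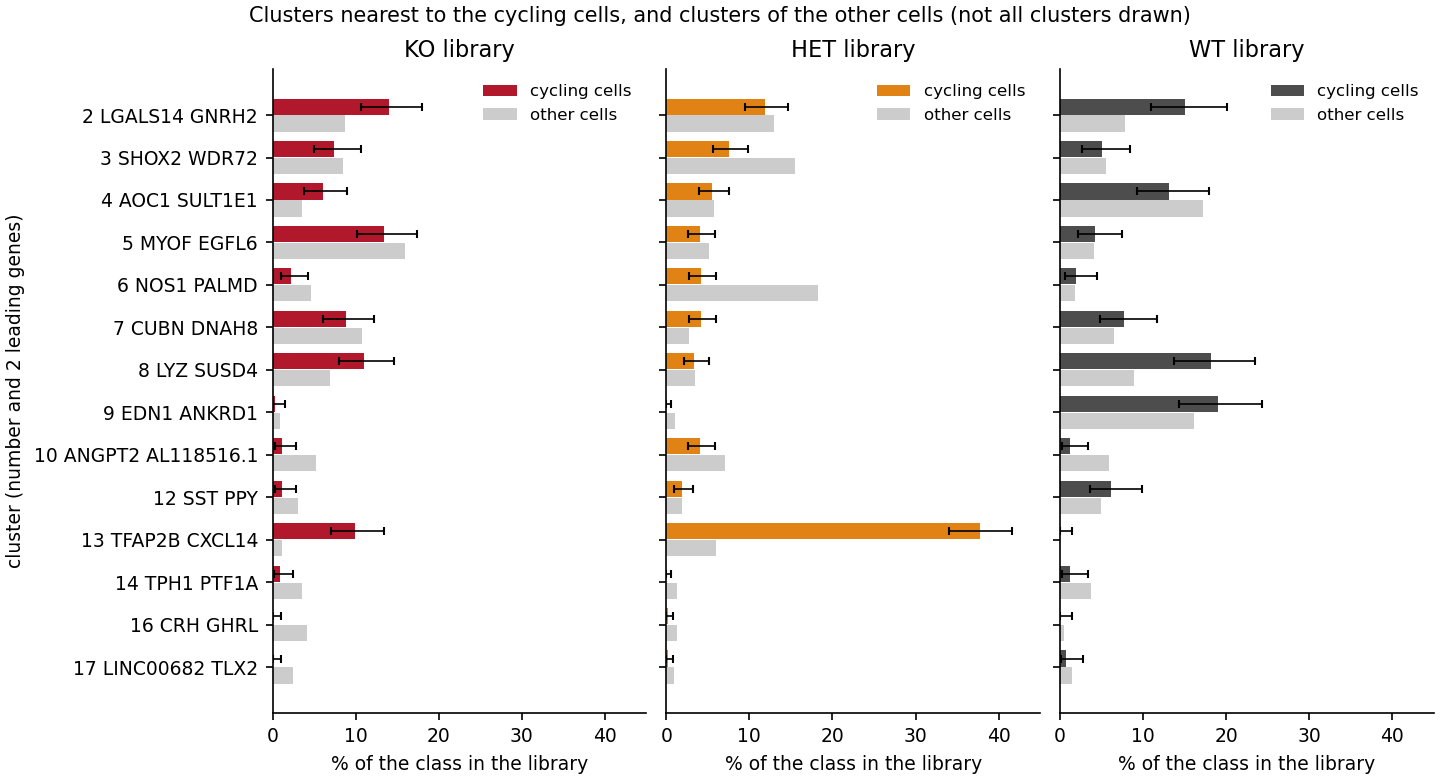
Share of each library's cycling cells, in percent, by the cluster of their nearest other cells, in KO, HET and WT. The TFAP2B-led cluster takes 9.89% of KO and 37.8% of HET cycling cells and none in WT, and in WT the EDN1-led cluster takes 19.0% and the LYZ-led one 18.2%. Coloured bars are cycling cells with exact 95% binomial intervals. Grey bars are the other cells of the same library, leaving out the cluster that formed on cell cycle genes. Not all clusters are drawn.

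The largest cluster of cycling cells in each library formed on the cell cycle although the cell cycle lists had been left out of clustering. Led by HIST1H3B, RRM2, FAM111B, HIST1H1B and AURKB, it held 228 KO (62.6%), 313 HET (48.3%) and 94 WT (36.4%) cycling cells. Histone genes of this family are near-identical copies and most of their RNA lacks a poly(A) tail, so their counts are uncertain. To ask which cells the cycling cells were most like, each was matched to its nearest other cells outside the cell cycle cluster. This step was added after seeing the data. In KO, 51 cycling cells (14.01%) lay nearest the cluster led by LGALS14, and 49 (13.5%) nearest the one led by MYOF. In HET, 245 (37.8%) lay nearest the TFAP2B-led cluster and 77 (11.9%) nearest the LGALS14-led one. In WT, 49 (19.0%) lay nearest the cluster led by EDN1 and ANKRD1, and 47 (18.2%) nearest the one led by LYZ and LPL. Of the members outside the cell cycle cluster, 580 of 635 (91.3%) were matched to the cluster they had been placed in. They include 280 of the 285 members of the TFAP2B-led cluster. Both steps used the same counts, so this match is not independent, and it does not cover members in the cell cycle cluster.

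These placements followed where the other cells lay, with some gaps. The shares of other cells given here leave out the cell cycle cluster. The MYOF-led cluster held 15.99% of KO other cells and the EDN1-led cluster 16.2% of WT other cells. The TFAP2B-led cluster held 1.16% of KO and 5.97% of HET other cells, against 9.89% and 37.8% of the cycling cells. The cluster led by NOS1 and DKK1 held 18.3% of HET other cells and took 4.17% of HET cycling cells. In WT, the LYZ-led cluster held 8.86% of other cells and took 18.2% of cycling cells.

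Some cycling cells did carry CHGA, the chromogranin of endocrine granules, at 10 or more per 10000 UMIs (CHGA-high cells), in all 3 libraries. They numbered 14 of 364 in KO (3.85%, 2.12 to 6.37), 21 of 648 in HET (3.24%, 2.02 to 4.91) and 26 of 258 in WT (10.1%, 6.69 to 14.4). The other cells reached this level in 13.1% of KO, 7.90% of HET and 19.3% of WT, so cycling cells were below the other cells in each library. Around the threshold, 0 KO, 1 HET and 4 WT cycling cells had 8 to 10 per 10000, and 2, 1 and 0 had 10 to 12. The highest single cell had 68.3 per 10000 in KO, 87.0 in HET and 106 in WT. Read the other way, 1.25% of KO cells at this CHGA level were cycling, 3.30% of HET and 1.59% of WT, against 4.57%, 8.03% and 3.32% of the cells below it.

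Depth and doublet scores moved with this result. The CHGA-high cycling cells had a median of 31345.5 UMIs in KO, 35482 in HET and 31914 in WT, against 23307.5, 22125 and 21296 UMIs in the CHGA-low cycling cells. In the top 8% of doublet scores were 8 of 14 in KO (57.1%), 16 of 21 in HET (76.2%) and 17 of 26 in WT (65.4%), against 14.3%, 14.99% and 10.8% of the CHGA-low cycling cells. CHGA-high other cells were there in 12.5% of KO, 14.4% of HET and 13.9% of WT. Their CHGA was also lower, with a median of 36.2 per 10000 in KO, 26.5 in HET and 24.1 in WT, against 62.9, 51.8 and 48.4 in CHGA-high other cells. With the top 8% removed, 6 of 306 KO (1.96%), 5 of 538 HET (0.929%) and 9 of 216 WT (4.17%) cycling cells remained at this CHGA level. Whether the removed cells were doublets was not tested.

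**Figure D4:**
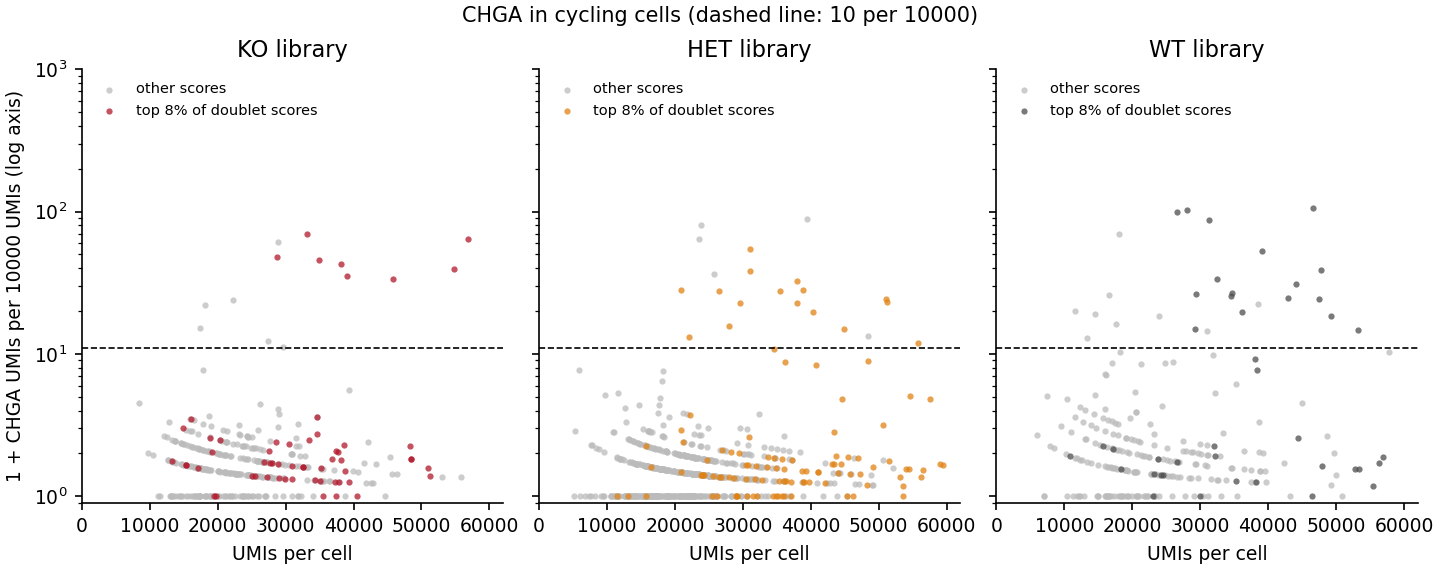
CHGA per 10000 UMIs, drawn as 1 plus the value on a log axis, against UMIs per cell in KO, HET and WT cycling cells, with a dashed line at 10 and the top 8% of doublet scores in colour. Above the line lie 14 KO, 21 HET and 26 WT cells, of which 8, 16 and 17 are in colour.

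Over all cycling cells, 7 of 10 tested pan-endocrine genes were lower than in the other cells by 2-fold or more in all 3 libraries (median -1.69), against 0.528% of all genes. Between libraries, 4 of 6 tested pan-endocrine genes were lower than in WT by 2-fold or more in KO cycling cells (median -1.12) and 4 of 6 in HET (median -1.22), beside 1.81% and 2.52% of all genes. Summed over the CHGA-high cycling cells, most but not all other endocrine genes were higher than in the CHGA-low ones. PAX6 stood at 181 CPM in KO, 98.1 CPM in HET and 111 CPM in WT, against 2.33, 3.58 and 8.94 CPM in the CHGA-low cycling cells. NEUROD1, a factor of endocrine differentiation, stood at 398 CPM in KO, 159 CPM in HET and 204 CPM in WT, against 4.32, 5.11 and 9.29 CPM. TPH1, the serotonin-making enzyme of enterochromaffin cells, stood at 524 CPM in KO, 29.6 CPM in HET and 96.7 CPM in WT. MKI67 in them was 248 CPM in KO, 169 CPM in HET and 183 CPM in WT, against 279, 304 and 303 CPM in the CHGA-low cycling cells. EPCAM had a UMI in 100% of them. NEUROG3, the switch to the endocrine fate, was at 0 UMIs in the CHGA-high cycling cells of all 3 libraries, and at 1.87 CPM in the CHGA-low ones of KO. RFX6 in WT was also lower in the CHGA-high cycling cells, at 76.4 against 77.6 CPM. So was SST in KO (0 against 1.40 CPM) and in HET (61.8 against 70.5 CPM). Of the 14 CHGA-high cycling cells in KO, 5 lay in the cell cycle cluster and 3 in the TPH1-led one. In HET, 8 of the 21 lay in the TFAP2B-led cluster.

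INS, GCG and SST were lower in cycling than in other cells of each library and differed widely between libraries. GCG, which encodes glucagon, stood at 9.22 CPM in KO and 115 CPM in HET, against 1779.95 CPM in WT cycling cells. INS, which encodes insulin, stood at 17.8 CPM in KO and 123 CPM in HET, against 472 CPM in WT. Against WT, GCG in KO was 193-fold lower (156 to 242), and in HET it was 15.4-fold lower (14.7 to 16.2). INS was lower by 26.6-fold in KO (22.7 to 31.3), and by 3.83-fold in HET (3.62 to 4.06). The other cells differed in the same genes, with GCG at 92.5 CPM in KO and 1463 CPM in HET, against 6108 CPM in WT. In KO, 6 of 6 tested hormone genes were at least 2-fold lower (median -7.53), and in HET 5 of 6 (-2.94), where 1.81% of all genes tested were so in KO and 2.52% in HET. In the KO comparison all 6 reached the 50 CPM filter through WT alone, so each had to lie below WT. The share over all genes is not a like background for that count. The KO count includes GHRL, whose WT level came almost wholly from 1 cell. INS overlaps the INS-IGF2 readthrough gene, so its counts depend on how reads were assigned.

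A few cells held most of the SST, GHRL and GCG RNA in WT, and the top 5 cells held 22.8% of INS UMIs in KO, 50.7% in HET and 54.3% in WT. Of 1548 SST (somatostatin) UMIs in WT cycling cells, 1310 (84.6%) were in 1 cell, and of 1108 in HET 932 (84.1%). Of 897 GHRL (ghrelin) UMIs in WT, 860 (95.9%) were in 1 cell. The top 5 cells held 72.4% of GCG UMIs in WT, and 1 cell held 58 of 84 (69.0%) in KO. Both sums thus came largely from few cells. Before thinning, GCG nonetheless had a UMI in 6.04% of KO, 73.3% of HET and 96.5% of WT cycling cells. In the other cells these shares were 6.71%, 63.3% and 96.0%. After thinning, GCG had a UMI in 1.65% of KO, 25.3% of HET and 59.3% of WT cycling cells. The thinned shares in the other cells were 2.99% in KO, 30.9% in HET and 70.7% in WT, above the cycling cells of each library. Within the cell cycle cluster alone, the KO against WT log2 ratio of GCG was -7.59, and -7.59 over all cycling cells. Other hormones lay nearer WT in that cluster. In KO, INS was at -2.91 there against -4.73 over all cycling cells, and SST at -5.31 against -7.54. PPY was at -3.56 against -7.63, and PYY at -3.76 against -7.53. For HET against WT, GCG was at -2.75 there against -3.95 over all cycling cells. INS reached 10 or more per 10000 UMIs in 0 KO, 9 HET and 16 WT cycling cells, and GCG in 1, 3 and 11. In the CHGA-low cycling cells, GCG stood at 3.03 CPM in KO, 58.0 CPM in HET and 283 CPM in WT, against 8.87, 83.9 and 321 CPM in the CHGA-low other cells. GCG in the CHGA-low cycling cells was thus below its level in the CHGA-low other cells of each library, and the part of free RNA was not tested.

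Outside the hormones, the genes furthest above WT in KO had several functions. CXCL14, a secreted chemokine, had 1032 UMIs in KO cycling cells and 0 in WT, which is at least 239-fold higher against a floor of 3 counts in the library. It is a leading gene of the TFAP2B-led cluster, and without that cluster it was at least 4.18-fold higher. SLC2A3, a glucose transporter, stood at 166 CPM in KO, against 29.9 CPM in WT, 5.57-fold higher (4.79 to 6.51), and was 4.54-fold higher without the cluster. ANXA1, a membrane-binding protein, stood at 84.9 CPM in KO, against 11.2 CPM in WT, 7.57-fold higher (5.93 to 9.79), but 1.54-fold without the cluster. FOSB, an immediate early transcription factor, stood at 131 CPM in KO, against 42.3 CPM in WT. CCL20, a chemokine, stood at 82.0 CPM in KO, against 33.8 CPM in WT, while its level in the other cells was 27.4 CPM in KO and 34.03 CPM in WT. The matrix proteins VCAN and FBN1, the histone HIST1H3G, the respiratory chain subunit MT-ND6, the semaphorin receptor NRP2 and CLTRN were 2.39-fold to 3.20-fold higher in KO. Without the TFAP2B-led cluster, 27 of 3638 genes (0.742%) were higher in KO by 2-fold or more and 56 (1.54%) were lower. Within the cell cycle cluster alone, 23 of 3659 (0.629%) were higher and 35 (0.957%) were lower.

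Lower in KO were PPY, GCG, SST, PYY and INS first, then SCG2, a granule protein, at 33.0 CPM in KO, against 171 CPM in WT. NTS, the gut peptide neurotensin, stood at 242 CPM in KO, against 1202 CPM in WT, 4.97-fold lower (4.74 to 5.21). Its level in the other cells was 229 CPM in KO and 1234 CPM in WT. STMN2, ERO1B, NEFM, AKR1C2 and PPP1R1A were 3.68-fold to 4.19-fold lower in KO.

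In HET, the genes furthest above WT were those of the TFAP2B-led cluster. CXCL14 was at least 1073-fold higher in HET, COL3A1 at least 231-fold, TFAP2B at least 219.7-fold and GABRP at least 142-fold, each with 0 UMIs in WT cycling cells. TFAP2A had 999 UMIs in HET and 2 in WT, a ratio of 198 (54.7 to 1639). SLC2A3 stood at 268 CPM in HET, against 29.9 CPM in WT, and was 6.98-fold higher without the cluster. PDGFC was 4.86-fold higher in HET as counted, with a log2 ratio of -0.21 without the cluster. GATA3, SEMA3D, ANXA1, PPP2R2B and SPARC were 7.55-fold to 45.7-fold higher. Without the cluster, 26 of 3641 genes (0.714%) were higher in HET by 2-fold or more and 45 (1.24%) were lower. Within the cell cycle cluster alone, 28 of 3638 (0.77%) were higher and 44 (1.21%) were lower.

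Below WT in HET were PPY, PYY, GCG, INS and SCG2 and several genes of other functions. EDN1, the vessel-constricting peptide endothelin, stood at 16.6 CPM in HET, against 72.1 CPM in WT, 4.35-fold lower (3.73 to 5.08). FGF19, a gut hormone of bile acid control, stood at 13.0 CPM in HET, against 50.1 CPM in WT. TNFSF10, a death ligand, stood at 40.8 CPM in HET, against 164 CPM in WT. PPP1R1A, TMEM176B, SULT2A1 and IL32 were 3.63-fold to 3.81-fold lower. EDN1 and FGF19 are leading genes of the cluster that took the most WT cycling cells, 49 of 258, and cluster makeup and genotype cannot be told apart here.

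**Figure D5:**
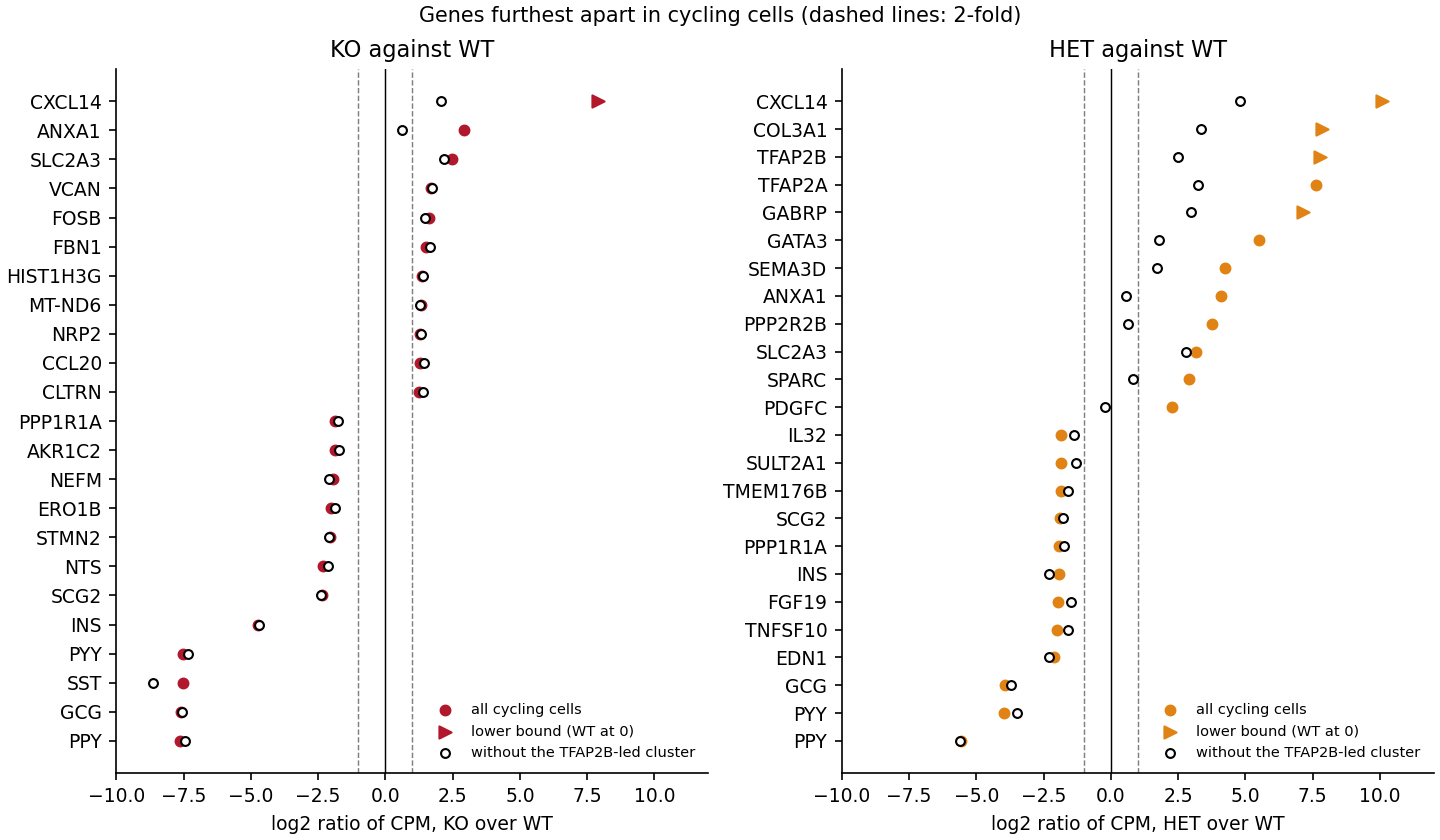
Log2 ratios of the genes furthest apart in cycling cells, KO against WT and HET against WT, over all cycling cells and without the TFAP2B-led cluster. Filled points are all cycling cells, triangles are lower bounds for genes at 0 in WT, and open circles leave out the cluster, which for those genes are lower bounds too. SLC2A3 is at 5.57-fold in KO with the cluster and 4.54-fold without it, and ANXA1 at 7.57-fold and 1.54-fold.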

How the data were processed

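The deposited values were raw UMI counts per gene and barcode, as Cell Ranger 6.1.2 output, per the file headers. GRCh38 and Seurat are named in the submitters' processing notes. The annotation release, aligner settings and any barcode filter before deposit were not given in the sources used here. Of the 33538 genes of a matrix, GENCODE 29 held 33456 by identifier.

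The members, gene lists and tests were chosen with earlier results of these data known. Counts were summed over the cycling and over the other cells of each library and scaled to CPM with TMM factors (edgeR 4.0.16, R 4.3.3). A gene was counted as apart at 2-fold or more with at least 50 CPM in 1 of the 2 libraries. Ratios have exact Poisson-based intervals and shares exact Clopper-Pearson ones. With 1 library per genotype no test was run. On simulated counts over 33538 genes, 100 of 100 genes changed 4-fold and 100 of 100 changed 3-fold were recovered in KO against WT.

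Cells were clustered together without integration (scanpy 1.11.5, leidenalg 0.10.2, 2000 variable genes without the cell cycle lists, PAX6, mitochondrial and ribosomal protein genes, 30 components, 20 neighbours, resolution 1), giving 19 clusters. Scrublet scored doublets with an expected rate of 0.08. Its automatic threshold called 37 WT and 0 KO or HET cycling cells, so the caller had not worked in KO and HET, no barcode was removed, and the top 8% of scores served as an alternative. Named genes were list members at 50 CPM or more, defining markers, the 12 most apart in each direction per comparison, leading genes of large clusters, and the 20 genes outside the cell cycle lists with the highest cycling ratio. Members of these sets are given as examples and ranges, and 1 gene and 1 cluster are not reported here. Alternatives were other UMI minimums for the rule, stricter barcode filters, plain CPM, other CPM and CHGA thresholds, thinning, and clusters left out.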

Additional observations from a re-analysis of the deposited data

Results flagged for a closer look

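Barcodes with at least 2 UMIs of MKI67 and of TOP2A also lay outside the barcode filter, and none of the comparisons uses them. HET had 26, of which 16 were over the UMI maximum and 10 over the mitochondrial maximum. WT had 15, of which 10 were over the UMI maximum and 5 over the mitochondrial one. KO had 3.

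GHRL had ratios of opposite sign in the 2 cell classes as counted. In cycling cells the KO against WT log2 ratio was -1.73, with 42.7 CPM in KO and 142 CPM in WT. In the other cells it was 1.85, with 464 CPM in KO and 128 CPM in WT. The difference was not tested, and 860 of the 897 GHRL UMIs in WT cycling cells were in 1 cell. In the CHGA-low cycling cells GHRL stood at 19.4 CPM in KO and 2.32 CPM in WT, and in the CHGA-low other cells at 31.9 CPM in KO and 15.3 CPM in WT, so there the signs were the same.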

How the results depend on the processing

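No paired analysis was possible because each genotype had 1 library. The order of cycling shares, HET above KO above WT, held with at least 1 UMI of each gene (5.19% KO, 9.56% HET, 3.94% WT) and at least 3 UMIs (3.47% KO, 6.16% HET, 2.43% WT). Thinned to 5000 UMIs they were 1.04% KO, 2.46% HET and 0.960% WT. Thinned without the TFAP2B-led cluster they were 0.911% KO, 1.496% HET and 0.960% WT, where KO lay below WT, by less than the counting intervals. HET stood at 6.92% after the top 8% of doublet scores was removed, and at 5.15% without the TFAP2B-led cluster. Cycling cells at the CHGA level were 1.96% KO, 0.929% HET and 4.17% WT with those scores removed, and in WT 14.7% at 5 per 10000 UMIs and 6.20% at 20.

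Genes at least 2-fold higher and lower were 68 and 135 in KO and 150 and 167 in HET at 20 CPM, and 11 and 40 in KO and 22 and 51 in HET at 100 CPM. With clusters weighing the same, which left the cell cycle cluster alone, 35 were lower in KO, and 28 higher and 44 lower in HET. Without the TFAP2B-led cluster HET had 26 higher and 45 lower. Turned round were ANXA1 in KO (log2 -0.42 with clusters weighing the same) and PDGFC in HET (-0.20 in that setting and -0.21 without the TFAP2B-led cluster). The other named values kept their side in every setting that gave a value, though 11 came under 2-fold with clusters weighing the same, 5 without the TFAP2B-led cluster and 1 with doublet scores removed. CXCL14 in KO gave no side with clusters weighing the same, since with 0 UMIs in WT its bound there was a log2 ratio of -0.02. With the cell cycle lists kept in clustering, the cell cycle cluster took 87.6% of KO, 58.8% of HET and 90.3% of WT cycling cells. The G2/M part was 61.4% in KO, 63.1% in HET and 65.2% in WT within the cell cycle cluster, and 65.4% in HET without the TFAP2B-led cluster. The settings without the TFAP2B-led cluster, within the cell cycle cluster and without CHGA-high cells were chosen after seeing the data. Where an alternative removed cells, the cause of a change was not tested. Cycling cells numbered 258 in WT, which limits shares there to the intervals given.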

Other observations

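Cycling cells also carried RNA of genes known from early embryonic cells. LIN28A, an RNA-binding protein of stem and fetal cells, stood at 82.3 CPM in KO, 82.3 CPM in HET and 94.97 CPM in WT cycling cells, and L1TD1, another RNA-binding protein of pluripotent cells, at 101 CPM in KO, 125 CPM in HET and 108 CPM in WT. The other cells held LIN28A at 81.9 CPM in KO, 94.7 CPM in HET and 76.4 CPM in WT, near the levels in cycling cells.

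AGR2, a secretory pathway protein of gut epithelium, stood at 685 CPM in KO, 906 CPM in HET and 1015 CPM in WT cycling cells, and at 343, 494 and 573 CPM in the other cells of KO, HET and WT. Genes of stretched epithelium were lower than in WT by 2-fold or more for 2 of 7 tested genes in KO and 3 of 7 in HET, beside 1.81% of all genes in KO and 2.52% in HET. ANKRD1, a muscle and stretch response protein, stood at 262 CPM in KO and 183 CPM in HET, against 599.5 CPM in WT cycling cells. TAGLN, an actin-binding protein, stood at 241 CPM in KO and 229 CPM in HET, against 557 CPM in WT. Both are leading genes of the EDN1-led cluster, which held 38 WT, 1 KO and 1 HET cycling cells. Over all cycling cells the median log2 ratio of this list was -0.32 in KO and -0.81 in HET. In the cell cycle cluster it was -0.26 in KO and -0.34 in HET. Cluster makeup and genotype cannot be told apart here.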
